A study of Mus musculus with 21 samples.

Results

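Transcripts of 9 surface proteins used to stage mouse B cell development were followed in cultured B cell precursors that had received an empty control vector (EV), the oncogene BCR-ABL1 or the oncogene C-MYC. The genes were Flt3, Kit, Ly6d, Spn, Cd93, Cd24a, Il2ra, Cd2 and Ms4a1, taken by symbol from the deposited tables, and they are 9 of 24421 genes listed there. All 9 were also among the 12786 genes that passed the filter on low counts. The cells came from bone marrow of 53BP1-/- C57BL/6 mice, so loss of the DNA repair factor 53BP1 is shared by all 3 conditions. Cells were grown with 10 ng/ml of interleukin-7 (IL-7), which favours B cell precursors, and transduced with the MIGR1 retroviral vector, either empty, with human BCR-ABL1 of the p210 form, or with mouse C-MYC. They were collected between days 7 and 9 after transduction, and poly(A) RNA was prepared for each library. Each of the 3 conditions had 2 libraries. They came from duplicate experiments, and the labels do not say whether these used separate mice. A p-value here therefore sets a difference against the spread between these libraries. Whether that spread includes variation between mice is not known. The sources used here name a depletion of dead cells but no sort of the cells taken for RNA-seq.

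In the bone marrow, lymphoid progenitors carry the receptor tyrosine kinases FLT3 and KIT, which bind FLT3 ligand and stem cell factor. LY6D appears on those lymphoid progenitors that turn towards the B lineage. Pro-B cells carry CD43, the product of Spn, together with CD93 (also called AA4.1) and CD24, the product of Cd24a. Pre-B cells that have passed the pre-B cell receptor checkpoint gain CD25, the product of Il2ra, and CD2, while CD43 and KIT decline. CD20, the product of Ms4a1, is a marker of later B cells. BCR-ABL1 is the fusion kinase of Philadelphia chromosome-positive leukemia and signals through STAT5 among other routes. C-MYC is a transcription factor that binds DNA with its partner MAX.

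The members lie on 7 autosomes of GRCm38, and annotated exons of other genes do not overlap theirs in GENCODE. Kit (chr5:75574916-75656722, plus strand, 21 exon blocks) and Flt3 (chr5:147330741-147400489, minus strand, 25 exon blocks) are long genes of related receptor kinases on the same chromosome. Il2ra (chr2:11642807-11693193, plus strand) and Cd93 (chr2:148436640-148443563, minus strand) are far apart on their chromosome. The others are Cd2 (chr3:101275899-101287939, minus strand), Spn (chr7:127132232-127137823, minus strand), Cd24a (chr10:43578284-43584265, plus strand), Ly6d (chr15:74762056-74763620, minus strand) and Ms4a1 (chr19:11249675-11266241, minus strand). Promoter sequences of RefSeq on GRCm38.p6 were found for 4 of the 9 genes, each with 250 bases before the annotated start and 50 after it. There was no entry for Cd2, Cd24a, Cd93, Ms4a1 and Ly6d. These windows were searched on both strands for the palindromic E-box CACGTG, a motif bound by MYC with MAX, and for TTCNNNGAA, a motif bound by STAT factors. The stretch next to the start is printed for each of the 4 genes, with the E-box in capitals, because the genes are those whose transcripts were compared between a MYC and a STAT-activating oncogene.
Flt3, chr5:147400469-147400498, minus strand: gaccacggcgggCACGTGggatcggctgca
Kit, chr5:75574957-75574986, plus strand: ctagtggctctgggggctcggctttgccgc
Il2ra, chr2:11642762-11642791, plus strand: ctatatgagatcacagaacagagtaggcac
Spn, chr7:127137824-127137853, minus strand: aagacccacttcctttccccctggggctca
The start meant here is that of the RefSeq promoter entry. For Kit it lies inside the GENCODE gene given above, and for Il2ra it lies before the GENCODE gene. The stretches of Kit, Il2ra and Spn end at the base before this start, and that of Flt3 spans it. The E-box of Flt3 begins at the 4th base, with the start base itself counted. The E-box was found in the window of Flt3 and not in those of Kit, Il2ra and Spn, and 7.24% of the 27025 RefSeq promoter windows hold it. TTCNNNGAA was found in 0 of the 4 windows, against 8.47% of all windows. The window of Kit was the richest in G and C, at 69.0%, and that of Il2ra the poorest, at 42.7%. A match of letters is a description of the sequence and shows no binding.

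Library totals lay between 20687092 and 24095955 counts, and 1 count corresponded to between 0.0415 and 0.0474 units of CPM (library-size-scaled counts, by edgeR's TMM method). Myc, a check on the C-MYC labels, had 3869 and 3277 counts with EV, 7239 and 8381 with BCR-ABL1, and 37920 and 27450 with C-MYC. Trp53bp1, the gene disrupted in these mice, had between 342 and 723 counts in every library, and counts over a whole gene do not show its loss. Markers that define the B lineage were present in all 6 libraries: Cd79a, the signalling chain of the B cell receptor, had 28277 and 28933 counts with EV, 34868 and 34266 with BCR-ABL1, and 17658 and 13425 with C-MYC. Markers of other blood and stromal cells stood higher in the EV libraries. Of all 12786 genes tested, 12.0% were called lower with BCR-ABL1 than with EV, and 24.5% were called lower with C-MYC. The 9 measured myeloid markers summed to between 1122 and 1274 CPM with EV, 141 and 157 with BCR-ABL1, and 191 and 328 with C-MYC, and 9 of 9 were called lower in each oncogene condition than in EV by edgeR's quasi-likelihood test. The 8 T and NK cell markers summed to between 88.2 and 119.5 CPM with EV, 9.24 and 10.3 with BCR-ABL1, and 3.63 and 6.33 with C-MYC, with 8 of 8 lower in each. The 8 mast cell and basophil markers summed to between 77.7 and 101 CPM with EV, 1.58 and 3.56 with BCR-ABL1, and 1.84 and 4.13 with C-MYC, and 6 of 6 that could be tested were lower in each. The mast cell proteases Tpsb2 and Cma1 were at 0 in all 4 oncogene libraries. The 8 stromal and endothelial markers summed to between 250.4 and 264 CPM with EV, 62.4 and 72.3 with BCR-ABL1, and 27.9 and 32.4 with C-MYC, of which 6 were called lower in BCR-ABL1. In C-MYC 7 were called lower, and Cxcl12 and Pdgfrb were at 0 there. Dendritic cell markers (19.2 to 21.2 CPM in EV, 1.50 to 1.85 in BCR-ABL1, 1.06 to 1.98 in C-MYC, with 2 of 3 tested lower in each) and erythroid and megakaryocyte markers (37.9 to 47.8, 7.94 to 9.34 and 11.4 to 13.7 CPM, with 2 of 3 tested lower in each) behaved likewise. Cd209a was at 0 in all 4 oncogene libraries, and Clec9a in those with BCR-ABL1. Several of the 9 stage markers are also known from such cells, among them Kit on mast cells, Il2ra, Cd2 and Spn on T cells, and Cd93 on endothelial and myeloid cells. The part of these other cells in the differences from EV was not tested. In bulk RNA, fewer cells that carry a transcript and less of it in each cell cannot be told apart.

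**Figure D1:**
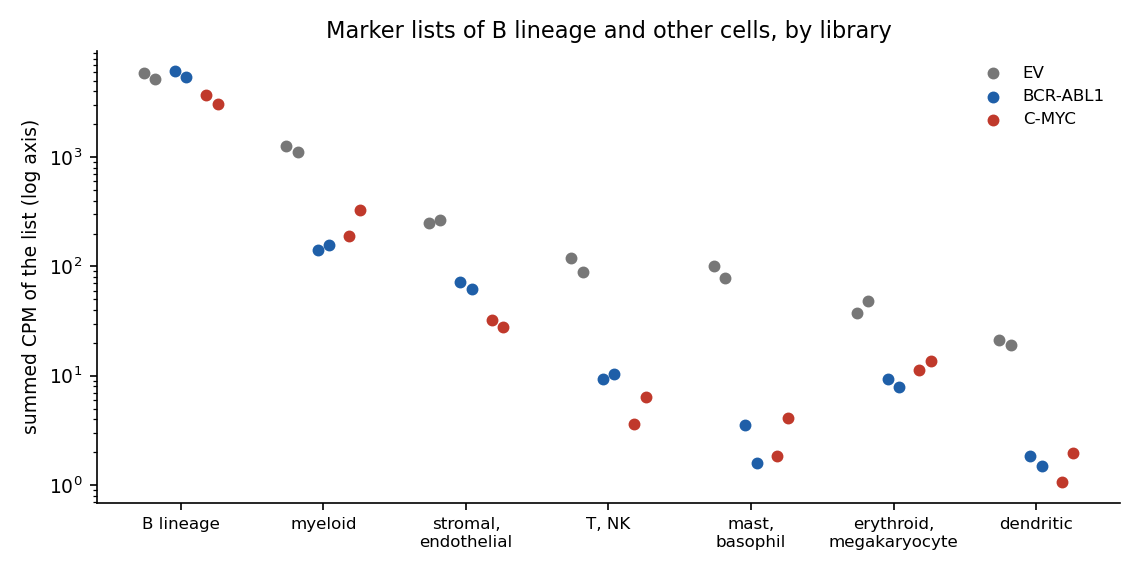
Summed CPM (TMM-normalized, log axis) of marker lists of B lineage and other cells, with 1 point for each library and 2 for each condition. The EV libraries lie above all oncogene libraries in the 6 lists of other cells, for example at 1122 and 1274 CPM for myeloid markers against at most 328, while in the B lineage list the C-MYC libraries are the lowest, at 3070.5 and 3710.3.

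Between BCR-ABL1 and C-MYC fewer markers of these lists were called than in the comparisons with EV. The filter, the scaling and the estimate of spread for this comparison also used the EV libraries. In that comparison 2 of 9 myeloid markers were called lower with BCR-ABL1, 1 of 8 T and NK cell markers and 3 of 8 stromal and endothelial markers were called higher, and the median log2 fold change of the T and NK cell markers was 0.69. Of all genes tested, 11.9% were called higher and 11.5% lower with BCR-ABL1 in this comparison. For mast cell and basophil, dendritic, and erythroid and megakaryocyte markers, edgeR called 0 of 6, 0 of 3 and 0 of 3. For so few markers these counts are near the shares of all genes. At an unadjusted p below 0.05 these counts were 0, 0 and 2, and DESeq2 called 0, 0 and 1.

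A single pattern did not cover the 9 markers. In C-MYC cells 7 of the 9 were lower than in EV, where 24.5% of all genes tested were, and each stage had genes among them. In BCR-ABL1 cells 5 were lower and Cd2 was higher, where 12.0% of all genes were lower and 5.08% higher. Between the oncogenes, 7 of the 9 were higher with BCR-ABL1, from 1.27-fold for Spn to 29.8-fold for Cd2, where 11.9% of all genes were higher. These calls use an edgeR adjusted p below 0.05, that is, edgeR's quasi-likelihood test over all 12786 genes with Benjamini-Hochberg adjustment. The calls of C-MYC against EV held whichever library was left out. In BCR-ABL1 against EV only those of Kit and Cd2 did, and between the oncogenes only those of Il2ra and Cd2.

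**Figure D2:**
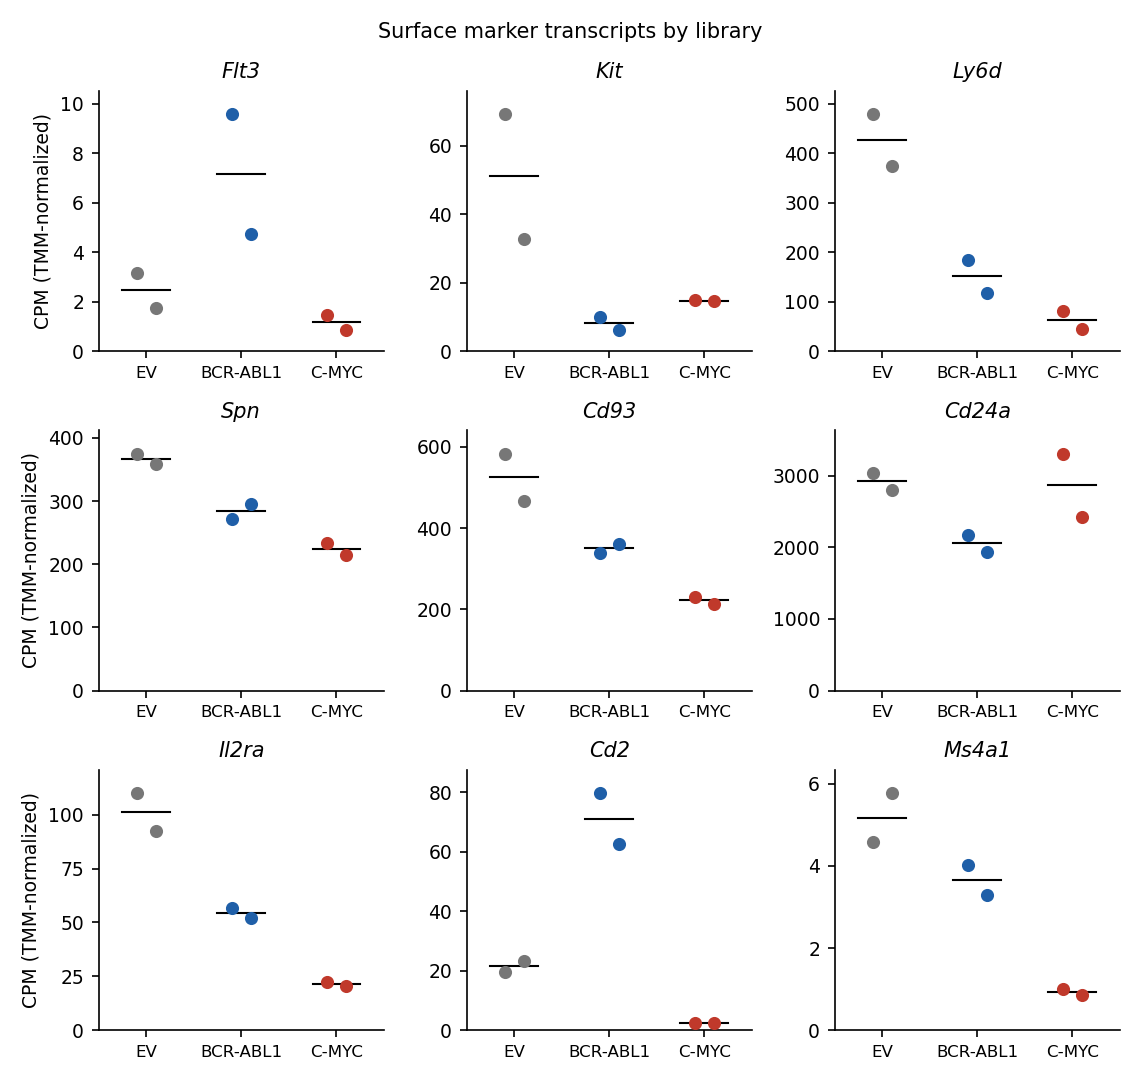
CPM (TMM-normalized, linear axes from 0) of the 9 stage markers, with 1 point for each library, 2 libraries for each condition and a bar at their mean. Cd2 is highest in BCR-ABL1 (62.6 and 79.7 CPM) and lowest in C-MYC (2.34 and 2.42 CPM), Kit is highest in EV, and the libraries of EV and C-MYC overlap for Cd24a.

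Flt3, the receptor of FLT3 ligand on early lymphoid progenitors, was scarce in every library. It had 68 and 42 counts with EV, 202 and 114 with BCR-ABL1, and 32 and 19 with C-MYC, which is 3.18 and 1.76 CPM, 9.58 and 4.74 CPM, and 1.47 and 0.853 CPM. The 3 conditions did not overlap, although the libraries of each condition differed by 1.72 to 2.02-fold. Its log2 fold change was 2.62 (SE 0.49) for BCR-ABL1 against C-MYC (edgeR adjusted p = 0.00873), or 6.13-fold. This call was lost without BCR-ABL1 replicate 1 (log2 fold change 2.03, edgeR adjusted p = 0.0728) and without C-MYC replicate 2 (2.28, edgeR adjusted p = 0.0767). Against EV the log2 fold change was 1.54 (SE 0.45) in BCR-ABL1 and -1.08 (SE 0.50) in C-MYC, and neither passed (edgeR adjusted p = 0.0549 and 0.116). With a term for the replicate number both passed (edgeR adjusted p = 0.00315 and 0.0130). DESeq2 gave an adjusted p of 0.0172 for BCR-ABL1 against EV, and limma gave 0.108 to 0.177. Without BCR-ABL1 replicate 1 that comparison was 0.95 (edgeR adjusted p = 0.350), and without EV replicate 1 it passed at 2.02 (edgeR adjusted p = 0.0261). C-MYC against EV passed without EV replicate 2 (-1.45, edgeR adjusted p = 0.0463).

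Kit, the receptor of stem cell factor, was highest in EV and lowest in BCR-ABL1. It had 1481 and 786 counts with EV, 211 and 152 with BCR-ABL1, and 321 and 327 with C-MYC (69.2 and 32.9, 10.0 and 6.32, and 14.8 and 14.7 CPM). The EV libraries differed by 2.11-fold, the widest gap between replicates among the 9 genes, and the lower of them still lay above all oncogene libraries. Kit fell by 2.65 on the log2 scale in BCR-ABL1 (SE 0.37, edgeR adjusted p = 0.00337) and by 1.79 in C-MYC (SE 0.35, edgeR adjusted p = 0.00526). Without EV replicate 1, the higher EV library, these were -2.01 and -1.15 and still passed (edgeR adjusted p = 0.00105 and 0.00536). Between the oncogenes the log2 fold change was -0.86 (SE 0.36) and did not pass (edgeR adjusted p = 0.127), although the libraries did not overlap. It passed with a term for the replicate number (edgeR adjusted p = 0.0232). DESeq2 placed it at an adjusted p of 0.0499, and it passed in edgeR without EV replicate 1 (edgeR adjusted p = 0.0156) or EV replicate 2 (edgeR adjusted p = 0.0123). The summed mast cell and basophil markers were highest in EV as well, and their part in the values of Kit was not tested.

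Ly6d, the marker of B-biased lymphoid progenitors, declined in steps from EV to BCR-ABL1 to C-MYC. It had 10249 and 8939 counts with EV, 3910 and 2844 with BCR-ABL1, and 1759 and 1010 with C-MYC (479 and 374, 185 and 118, and 80.9 and 45.4 CPM). No library of a condition reached the level of another condition. Against EV it fell by 1.49 on the log2 scale in BCR-ABL1 (SE 0.30, edgeR adjusted p = 0.0138) and fell by 2.76 in C-MYC (SE 0.31, edgeR adjusted p = 6.18e-04). BCR-ABL1 exceeded C-MYC by 2.40-fold (log2 fold change 1.27, SE 0.30, edgeR adjusted p = 0.0214). The call of BCR-ABL1 against EV was lost without BCR-ABL1 replicate 2 (-1.20, edgeR adjusted p = 0.0936). That of BCR-ABL1 against C-MYC was lost without BCR-ABL1 replicate 1 (0.91, edgeR adjusted p = 0.143) and without C-MYC replicate 2 (0.91, edgeR adjusted p = 0.112).

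Spn, which encodes the pro-B cell marker CD43, changed the least among the genes that passed. It had 8019 and 8567 counts with EV, 5731 and 7134 with BCR-ABL1, and 5096 and 4777 with C-MYC (375 and 358, 272 and 296, and 234 and 215 CPM). The order of the conditions was that of Ly6d, without overlap, over a much narrower span. Spn fell by 0.71 on the log2 scale in C-MYC (SE 0.10, edgeR adjusted p = 0.00152). In BCR-ABL1 it fell by 0.37 (SE 0.10, edgeR adjusted p = 0.0453), and this call was lost in 5 of the 6 fits without 1 library. The exception was the fit without EV replicate 2, and the adjusted p of the others ranged from 0.0656 without C-MYC replicate 2 to 0.330 without BCR-ABL1 replicate 1. Its values were 0.0660 without C-MYC replicate 1, 0.0810 without EV replicate 1 and 0.179 without BCR-ABL1 replicate 2. The difference between the oncogenes, 0.34 (SE 0.10, edgeR adjusted p = 0.0474), was lost without BCR-ABL1 replicate 1, BCR-ABL1 replicate 2, C-MYC replicate 1 or C-MYC replicate 2 (edgeR adjusted p = 0.173, 0.306, 0.0946 and 0.212), and DESeq2 put it at 0.0535.

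Cd93, the AA4.1 antigen of immature B lineage cells, followed the same order. It had 12462 and 11160 counts with EV, 7169 and 8704 with BCR-ABL1, and 5031 and 4736 with C-MYC (583 and 466, 339.8 and 362, and 231 and 213 CPM). The conditions did not overlap. Cd93 fell by 1.24 on the log2 scale in C-MYC (SE 0.13, edgeR adjusted p = 4.75e-04) and by 0.58 in BCR-ABL1 (SE 0.13, edgeR adjusted p = 0.0186). The latter was lost without BCR-ABL1 replicate 1 (-0.53, edgeR adjusted p = 0.150) or BCR-ABL1 replicate 2 (-0.63, edgeR adjusted p = 0.111). BCR-ABL1 exceeded C-MYC by 0.66 (SE 0.13, edgeR adjusted p = 0.00998), a call lost without BCR-ABL1 replicate 1, BCR-ABL1 replicate 2 or C-MYC replicate 2 (edgeR adjusted p = 0.0658, 0.0757 and 0.0743).

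Cd24a, the heat-stable antigen, was the most abundant of the 9. It was the one gene without a call in any comparison of the edgeR fit to all 6 libraries with TMM scaling, the filter on low counts and no replicate term. It had 64843 and 67072 counts with EV, 45907 and 46676 with BCR-ABL1, and 71907 and 54090 with C-MYC (3031 and 2804, 2176 and 1939, and 3305 and 2429 CPM). Its C-MYC libraries lay on either side of the EV libraries, while those of BCR-ABL1 lay below all others. Against EV the log2 fold change was -0.50 (SE 0.15, edgeR adjusted p = 0.0553) in BCR-ABL1 and -0.03 (SE 0.15, edgeR adjusted p = 0.907) in C-MYC. Against C-MYC it was -0.48 in BCR-ABL1 (SE 0.15, edgeR adjusted p = 0.0525). The comparisons of BCR-ABL1 with EV and with C-MYC passed with a term for the replicate number (edgeR adjusted p = 0.00705 and 0.00781) and with DESeq2 (adjusted p = 0.0396 and 0.0198). Both also passed without the filter on low counts (edgeR adjusted p = 0.0112 and 0.0104) and in the model of the 4 libraries compared (edgeR adjusted p = 0.0192 and 0.0332). With DESeq2's size factors only the latter passed (edgeR adjusted p = 0.0636 and 0.0456). limma gave an adjusted p of 0.0442 to 0.112 for the former and 0.0723 to 0.202 for the latter. In edgeR the former passed without C-MYC replicate 1 (edgeR adjusted p = 0.0172) or C-MYC replicate 2 (edgeR adjusted p = 0.0170). The latter passed without EV replicate 1, EV replicate 2 or C-MYC replicate 2 (edgeR adjusted p = 0.0350, 0.0340 and 0.0206).

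Il2ra, which encodes the interleukin-2 receptor alpha chain CD25 of pre-B cells, declined from EV to BCR-ABL1 to C-MYC with little spread between replicates. It had 2353 and 2211 counts with EV, 1200 and 1256 with BCR-ABL1, and 482 and 456 with C-MYC (110.0 and 92.4, 56.9 and 52.2, and 22.2 and 20.5 CPM). The conditions were well apart. Il2ra fell by 2.25 on the log2 scale in C-MYC (SE 0.14, edgeR adjusted p = 1.75e-04) and by 0.89 in BCR-ABL1 (SE 0.13, edgeR adjusted p = 0.00475). Without BCR-ABL1 replicate 2 the latter was -0.83 (edgeR adjusted p = 0.0642). BCR-ABL1 exceeded C-MYC by 2.56-fold (log2 fold change 1.35, SE 0.14, edgeR adjusted p = 0.00122).

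Cd2, an adhesion receptor that appears on pre-B cells in the mouse, was the member that moved in opposite directions under the 2 oncogenes, with both changes past the threshold. It had 422 and 554 counts with EV, 1681 and 1507 with BCR-ABL1, and 51 and 54 with C-MYC (19.7 and 23.2, 79.7 and 62.6, and 2.34 and 2.42 CPM). Every BCR-ABL1 library lay above every EV library, and every EV library above every C-MYC library. Cd2 rose by 1.73 on the log2 scale in BCR-ABL1 (SE 0.17, edgeR adjusted p = 9.27e-04), which is 3.32-fold. In C-MYC it fell by 3.17 (SE 0.20, edgeR adjusted p = 1.75e-04), which is 8.98-fold. The direct comparison of the oncogenes gave 4.90 (SE 0.20, edgeR adjusted p = 9.11e-05), or 29.8-fold. These 3 calls held in each fit without 1 library.

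Ms4a1, which encodes CD20 of later B cells, was low in all conditions. It had 98 and 138 counts with EV, 85 and 79 with BCR-ABL1, and 22 and 19 with C-MYC (4.58 and 5.77, 4.03 and 3.28, and 1.01 and 0.853 CPM). The BCR-ABL1 libraries lay just below those of EV, and the C-MYC libraries far below both. Ms4a1 fell by 2.47 on the log2 scale in C-MYC (SE 0.31, edgeR adjusted p = 8.37e-04). In BCR-ABL1 the log2 fold change was -0.50 (SE 0.27) and did not pass (edgeR adjusted p = 0.255). Against C-MYC it was higher in BCR-ABL1 by 1.96 (SE 0.31, edgeR adjusted p = 0.00508), a call lost without BCR-ABL1 replicate 1 (1.81, edgeR adjusted p = 0.0527).

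**Figure D3:**
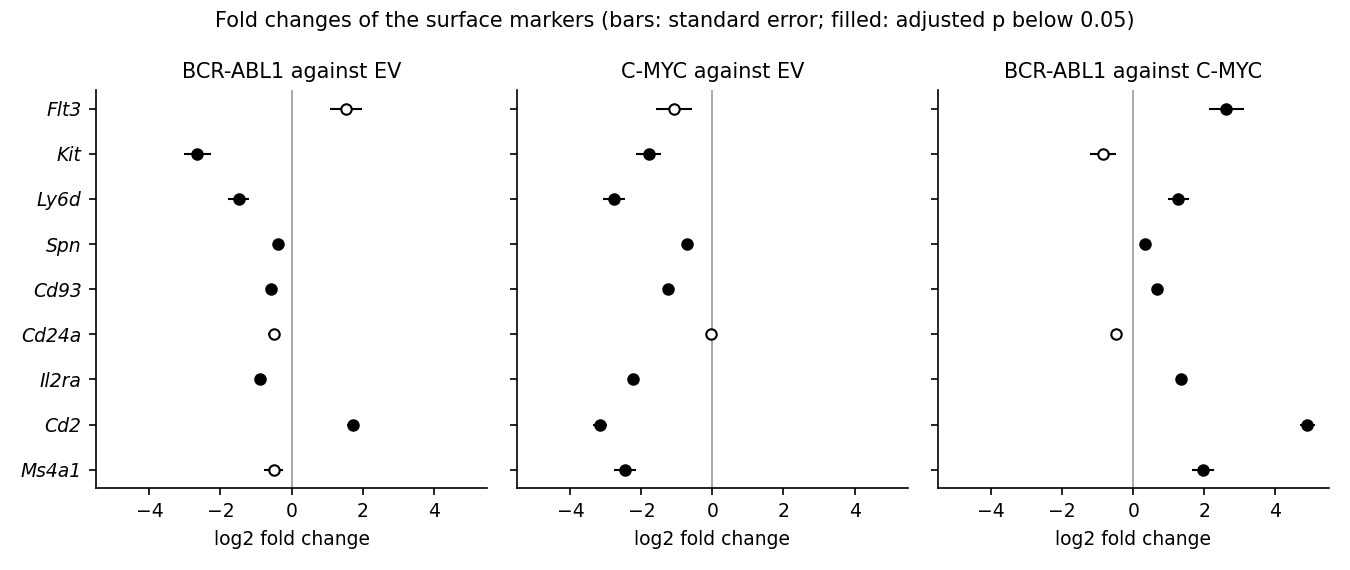
Log2 fold changes of the 9 stage markers in the 3 comparisons (horizontal axes), with bars for the standard error and filled points for an edgeR adjusted p below 0.05. The standard errors come from the edgeR fit to all 6 libraries, 2 in each condition. The points of C-MYC against EV lie at or left of 0, from -0.03 for Cd24a to -3.17 for Cd2, while BCR-ABL1 against C-MYC has 7 filled points right of 0.

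Over the 9 members, BCR-ABL1 against EV gave 1 called higher and 5 called lower, where 5.08% of all 12786 genes were called higher and 12.0% lower. The median log2 fold change of the members was -0.50, against 0.00 for all genes tested, and the libraries did not overlap for 9 of 9, as for 58.9% of all genes tested. C-MYC against EV gave 7 of 9 called lower, where 24.5% of all genes were called lower, and the members' median was -1.79 against -0.08. Libraries did not overlap for 8 of 9, Cd24a being the exception, and for 70.6% of all genes tested, and the 7 calls held in each fit without 1 library. edgeR called 0 members higher in C-MYC than in EV, where 18.6% of all genes were called higher. The count was also 0 at an unadjusted p below 0.05 and 0 with DESeq2. Both comparisons use the same EV libraries and are not independent of each other. BCR-ABL1 against C-MYC gave 7 of 9 called higher, where 11.9% of all genes were called higher, with a members' median of 1.27 against 0.00 and 9 of 9 without overlap, as for 69.9% of all genes tested. edgeR called 0 members lower, where 11.5% of all genes were called lower. At an unadjusted p below 0.05 Cd24a and Kit were lower, and DESeq2 called the same 2. This comparison leaned on single libraries: of the 7 calls, 2 remained without BCR-ABL1 replicate 1 and 3 without C-MYC replicate 2, which added 1 called lower. In BCR-ABL1 against EV, 2 of the 6 calls remained without BCR-ABL1 replicate 2.

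Ratios of counts within a library need no scaling between libraries and show how the combination of markers differed. There were 7.97 and 9.91 counts of Cd2 for each count of Kit in BCR-ABL1, 0.285 and 0.705 in EV, and 0.159 and 0.165 in C-MYC. For each count of Il2ra there were 1.40 and 1.20 of Cd2 in BCR-ABL1, 0.179 and 0.251 in EV, and 0.106 and 0.118 in C-MYC. Both ratios were highest in BCR-ABL1 and lowest in C-MYC, without overlap. Il2ra per Kit, a pre-B over a progenitor marker, was 5.69 and 8.26 in BCR-ABL1, 1.59 and 2.81 in EV, and 1.50 and 1.39 in C-MYC. Flt3 per Kit was 0.957 and 0.750 in BCR-ABL1, 0.0459 and 0.0534 in EV, and 0.0997 and 0.0581 in C-MYC. These are ratios of counts of genes of different length, so they compare libraries and not the levels of 2 genes, and Flt3 per Kit was highest in BCR-ABL1, without overlap. Cd24a per Spn, CD24 over CD43, was 14.1 and 11.3 in C-MYC, 8.09 and 7.83 in EV, and 8.01 and 6.54 in BCR-ABL1. Ly6d per Cd24a was 0.158 and 0.133 with EV, 0.0852 and 0.0609 with BCR-ABL1, and 0.0245 and 0.0187 with C-MYC. With 2 libraries in each condition, an exact permutation test of such a ratio cannot pass 0.05, and none was run.

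Levels of different genes were compared per transcript length, as the deposited FPKM (fragments per kilobase of transcript, scaled to the sequencing depth). In EV the order was Cd24a (1607 ± 60.5 FPKM, SD, n = 2), Ly6d (485 ± 77.9), Spn (131 ± 2.21), Cd93 (78.1 ± 11.0), Il2ra (40.4 and 34.7), Cd2 (18.4 ± 2.24), Kit (9.35 ± 4.55), Ms4a1 (3.59 ± 0.740) and Flt3 (2.29 ± 0.968), and the libraries of no neighbours in this order overlapped. In BCR-ABL1 Cd24a led again (1073 ± 72.5 FPKM, SD, n = 2), followed by Ly6d (164 ± 50.4) and Spn (97.1 ± 6.64). Cd2 came next (57.2 ± 11.2 FPKM) and its libraries overlapped those of Cd93 (49.8 ± 2.44). Il2ra (19.3 ± 1.00), Flt3 (6.10 ± 2.91), Ms4a1 (2.39 ± 0.439) and Kit (1.42 ± 0.447 FPKM) completed the order, so Kit went from the 7th place in EV to the last in BCR-ABL1. In C-MYC Cd24a (1441 ± 263 FPKM, SD, n = 2) was followed by Spn (73.8 ± 2.38) and Ly6d (65.5 ± 24.2), whose libraries overlapped. Cd93 (30.3 ± 0.902), Il2ra (7.26 ± 0.228), Kit (2.49 ± 0.0739), Cd2 (1.89 ± 0.0663), Flt3 (0.964 ± 0.336) and Ms4a1 (0.615 ± 0.0392 FPKM) came after them. Cd2 exceeded 89.1% of the genes with an FPKM above 0 in BCR-ABL1, 73.1% in EV and 42.0% in C-MYC. Cd24a exceeded at least 99.6% of them in each condition. Counts per kilobase of annotated exon placed several genes differently: relative to the median gene, FPKM was 3.43 times higher for Flt3 and 2.68 times higher for Ms4a1, and for Ly6d and Cd93 it was 0.531 and 0.617 of that measure. By counts per kilobase Cd93 and Spn were close in EV (78.6 and 78.3 CPM per kilobase), Ly6d preceded Spn in C-MYC (84.8 and 47.9), and Kit (0.916) preceded Ms4a1 (0.591) in BCR-ABL1. Comparisons of a gene with itself across conditions do not depend on its length.

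**Figure D4:**
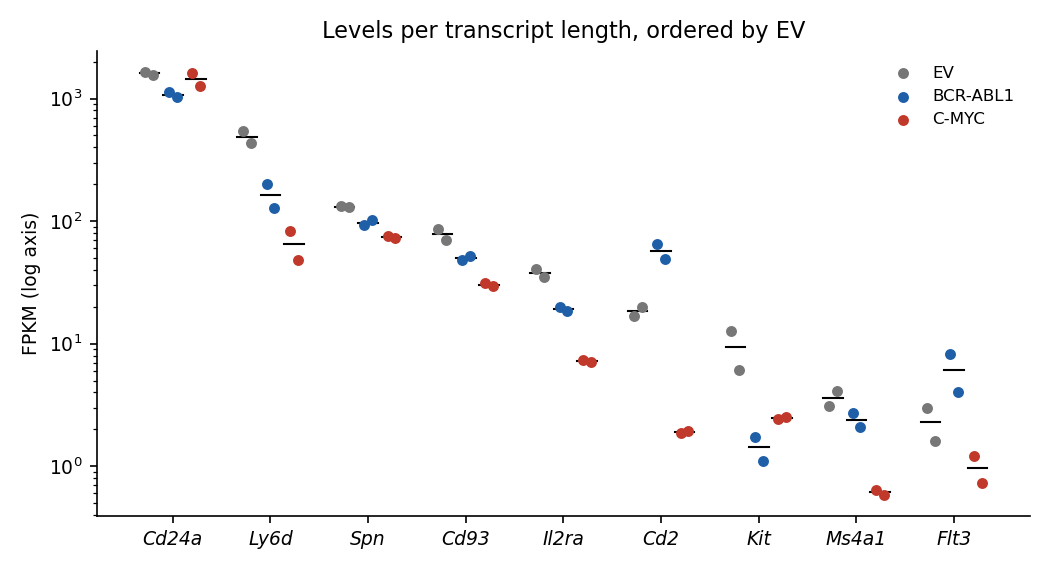
Deposited FPKM of the 9 stage markers (log axis), ordered by their mean in EV, with 1 point for each library, 2 for each condition and a bar at the mean. Cd24a is the highest in every condition, at 1607, 1073 and 1441 FPKM in EV, BCR-ABL1 and C-MYC, and Cd2 spans the widest range in fold terms, from 1.89 FPKM in C-MYC to 57.2 in BCR-ABL1.

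Ligands and partners of the 9 proteins were read from a list of 16, of which 14 could be tested. In BCR-ABL1 1 was higher and 5 were lower than in EV, and in C-MYC 1 was higher and 8 were lower, with medians of -0.28 and -0.69 on the log2 scale. Of all genes tested 5.08% were higher and 12.0% lower in BCR-ABL1, and 18.6% higher and 24.5% lower in C-MYC. Il2rb, the beta chain of the interleukin-2 receptor that pairs with CD25, had 1881 and 1162 counts with EV, 80 and 84 with BCR-ABL1, and 155 and 148 with C-MYC. It fell by 4.23 in BCR-ABL1 (SE 0.30, edgeR adjusted p = 3.72e-04) and fell by 3.31 in C-MYC (SE 0.28, edgeR adjusted p = 3.08e-04), and T and NK cells, whose markers fell as well, are known to carry it. Flt3l, the ligand of FLT3, had 237 and 220 counts with EV, 81 and 103 with BCR-ABL1, and 31 and 38 with C-MYC. Its transcript was lowest in C-MYC, as was that of Flt3, but it was highest in EV and that of Flt3 in BCR-ABL1. Flt3l fell by 1.32 in BCR-ABL1 against EV (SE 0.24, edgeR adjusted p = 0.00918). It was higher in BCR-ABL1 than in C-MYC by 1.37 (SE 0.26, edgeR adjusted p = 0.00936). Siglecg, a receptor of B cells that binds CD24, had 3222 and 4269 counts with EV, 2023 and 2166 with BCR-ABL1, and 976 and 848 with C-MYC, and it fell by 1.99 in C-MYC (SE 0.14, edgeR adjusted p = 1.77e-04). Cd244, a receptor of the CD2 family, had between 152 and 202 counts in EV and between 61 and 82 in the oncogene libraries, with log2 fold changes of -1.32 and -1.22 in BCR-ABL1 and C-MYC against EV (edgeR adjusted p = 0.0120 and 0.00684). The interleukin-2 gene Il2 itself was at 0 in all 4 oncogene libraries.

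Of 14 signal carriers and inhibitors of KIT and FLT3, 2 were lower in BCR-ABL1 and 8 in C-MYC than in EV, and 5 were higher in BCR-ABL1 than in C-MYC. The shares of all genes tested were 12.0%, 24.5% and 11.9%, so the count in BCR-ABL1 against EV was near the background. Ptpn6, the phosphatase SHP-1 that restrains KIT, had 3973 and 3379 counts with EV, 3009 and 3287 with BCR-ABL1, and 1560 and 1314 with C-MYC. It fell by 1.32 in C-MYC (SE 0.16, edgeR adjusted p = 7.65e-04), whereas its log2 fold change in BCR-ABL1 was -0.23 (edgeR adjusted p = 0.372). Pik3cd, the catalytic PI3 kinase subunit of white blood cells, likewise fell in C-MYC by 0.87 (SE 0.12, edgeR adjusted p = 0.00130) and had a log2 fold change of 0.21 in BCR-ABL1 (edgeR adjusted p = 0.278). Gab2, a docking protein, fell in both conditions, with log2 fold changes against EV of -0.68 for BCR-ABL1 and -1.29 for C-MYC (edgeR adjusted p = 0.0120 and 4.77e-04). Sh2b3, the adaptor LNK that dampens KIT signalling, fell by 0.90 in C-MYC (SE 0.19, edgeR adjusted p = 0.00708) and had a log2 fold change of -0.31 in BCR-ABL1 (edgeR adjusted p = 0.315).

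Of 8 other progenitor surface markers tested, 5 were called lower in each oncogene condition, where 12.0% and 24.5% of all genes were, and DESeq2 called 4 in each. The list's medians were -2.09 for BCR-ABL1 and -1.78 for C-MYC. Its summed level was 451 and 221 CPM with EV, 146 and 137 with BCR-ABL1, and 218 and 214 with C-MYC, so the C-MYC libraries lay close to the lower EV library. Ly6a, which encodes the stem cell antigen SCA-1, had 5198 and 1244 counts with EV, 812 and 468 with BCR-ABL1, and 252 and 323 with C-MYC, with EV libraries far apart, as for Kit. Cd27 fell, with log2 fold changes of -2.51 for BCR-ABL1 and -2.72 for C-MYC (edgeR adjusted p = 0.00697 and 0.00209). So did Il6ra, the interleukin-6 receptor, with -2.60 and -1.61 (edgeR adjusted p = 0.00311 and 0.00656). Cd44, an adhesion receptor, departed from them: it had 3300 and 2609 counts with EV, 1305 and 1596 with BCR-ABL1, and 3513 and 3311 with C-MYC. It fell by 1.04 in BCR-ABL1 (SE 0.17, edgeR adjusted p = 0.00601), and in C-MYC its log2 fold change was 0.24 (edgeR adjusted p = 0.281). Cd44 had 154 and 109 CPM with EV, 61.9 and 66.3 with BCR-ABL1, and 161 and 149 with C-MYC. The list's sums in C-MYC, and their closeness to the lower EV library, thus rested mostly on Cd44.

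Of 15 other pro-B and pre-B surface markers, 4 were lower in BCR-ABL1 than in EV and 10 were lower in C-MYC, with medians of 0.13 and -0.71, where 12.0% and 24.5% of all genes were lower. Between the oncogenes 10 were higher and 2 lower in BCR-ABL1, where 11.9% of all genes were higher and 11.5% lower. The count of lower genes was thus near the background. Il7r, the receptor for the IL-7 in the medium, had 3934 and 3128 counts with EV, 984 and 1029 with BCR-ABL1, and 1106 and 1167 with C-MYC. It fell by 1.82 in BCR-ABL1 (SE 0.17, edgeR adjusted p = 9.10e-04) and by 1.61 in C-MYC (SE 0.17, edgeR adjusted p = 5.06e-04). The tetraspanin gene Cd9 and the B cell coreceptor gene Cd72 fell in BCR-ABL1, with log2 fold changes of -1.74 and -1.49 (edgeR adjusted p = 0.00117 and 7.64e-04), and their log2 fold changes in C-MYC were -0.12 and -0.32 (edgeR adjusted p = 0.605 and 0.0819). Both were lower in BCR-ABL1 than in C-MYC, with log2 fold changes of -1.61 and -1.17 (edgeR adjusted p = 0.00156 and 0.00163), the direction of Kit and Cd24a rather than of the 7 called stage markers. Crlf2, the receptor of thymic stromal lymphopoietin, fell by 1.25 in C-MYC (SE 0.21, edgeR adjusted p = 0.00285) and had a log2 fold change of -0.19 in BCR-ABL1 (edgeR adjusted p = 0.581).

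Of 15 tested surface markers of immature and mature B cells, 1 was higher and 7 were lower in BCR-ABL1 than in EV, and 1 was higher and 13 were lower in C-MYC. Of all genes tested 5.08% were higher and 12.0% lower in BCR-ABL1, while 18.6% were higher and 24.5% lower in C-MYC. The activation markers Cd83 and Cd86 fell in both conditions, with log2 fold changes of -2.85 and -2.78 for Cd83 and of -2.07 and -2.98 for Cd86 in BCR-ABL1 and C-MYC (edgeR adjusted p between 0.00204 and 0.0317). Cd83 and Cd86 are also known from myeloid cells. Cd38, a surface enzyme of B cells, showed the split seen for Ms4a1: it had 459 and 782 counts with EV, 525 and 539 with BCR-ABL1, and 86 and 91 with C-MYC. It fell by 2.75 in C-MYC (SE 0.24, edgeR adjusted p = 3.10e-04) and had a log2 fold change of -0.20 in BCR-ABL1 (edgeR adjusted p = 0.583).

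Genes that define the B lineage as a whole moved with the stage markers in C-MYC. Of 8 such genes, 7 were lower in C-MYC than in EV (median -0.79) and 1 was lower in BCR-ABL1 (median 0.12), and 6 were higher in BCR-ABL1 than in C-MYC, where 24.5%, 12.0% and 11.9% of all genes were. Their summed level was 5242 and 5899.6 CPM with EV, 5446 and 6115 with BCR-ABL1, and 3070.5 and 3710.3 with C-MYC. Cd79a and the transcription factor gene Ebf1 fell in C-MYC, with log2 fold changes of -0.84 and -0.77 (edgeR adjusted p = 0.00376 and 0.00241). Vpreb1, part of the surrogate light chain, fell by 0.80 (edgeR adjusted p = 0.00225). Cd79b fell by 1.05 in C-MYC (edgeR adjusted p = 0.00196) and fell by 0.58 in BCR-ABL1 (edgeR adjusted p = 0.0457). The log2 fold changes in C-MYC of 6 of the 7 stage markers called lower, from -1.24 for Cd93 to -3.17 for Cd2, lay beyond those of these 4 B lineage genes. Those of Spn, -0.71, and Cd24a, -0.03, were smaller, and that of Flt3, -1.08, was called in neither direction. These differences between genes were not tested. Whether the level of B lineage genes had a part in the stage marker values was not tested.

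The genes whose level ran most like each member over the 6 libraries were found by Pearson's correlation of log2 CPM, as a description over libraries that fall into 3 pairs. For Cd2 they were Pcdh11x (r = 0.994), with 350 and 506 counts with EV, 887 and 1139 with BCR-ABL1, and 100 and 113 with C-MYC, and Bfsp2 (r = 0.992). Those of Kit were Nab2 (r = 0.994), a corepressor with 222 and 105 counts with EV, 22 and 18 with BCR-ABL1, and 46 and 49 with C-MYC, and Emb (r = 0.993). Nab2 thus showed the gap between the EV libraries that Kit showed. For Flt3 they were Bcl2l11 (r = 0.986), which encodes the apoptosis inducer BIM, and Spsb1 (r = 0.980). Bcl2l11 had 3150 and 2551 counts with EV, 4725 and 4415 with BCR-ABL1, and 2009 and 1875 with C-MYC, a high count beside the scarce Flt3. Il2ra had Parp8 and Btg1 (r = 0.999 for each), Btg1 being an antiproliferative gene with 12923 and 11199 counts with EV, 6082 and 6545 with BCR-ABL1, and 2041 and 1993 with C-MYC. Its relative Btg2 was the nearest to Ly6d (r = 0.997), with Iqsec2 (r = 0.992) after it. Isg20 appeared for Cd93 (r = 0.997) and for Spn (r = 0.994), beside Tmem63a and BC037034. Ms4a1 had Prkcb (r = 0.998), the protein kinase C of B cell receptor signalling, and Cd55 (r = 0.997), and Cd24a had Thtpa and Ckap4 (r = 0.973 for each). The number of genes eligible for this comparison ranged from 518 for Cd2 to 8950 for Cd24a, and the best of so many over 6 libraries is high by selection.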

How the data were processed

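Poly(A) RNA-seq of 6 libraries was analysed, with 2 each for EV, BCR-ABL1 and C-MYC, and the labels of the samples gave the condition and the replicate number. The authors aligned reads to GRCm38/mm10 with STAR 2.5.0 and the UCSC known genes and deposited unnormalized counts for 24421 gene symbols. The deposited FPKM values were calculated by the authors with StringTie 1.3.0. The counting program and its use of strand are not given in the sources used here, so reads shared with overlapping or antisense transcripts cannot be separated. The tables hold 0 columns of other samples. The 15 ChIP-seq samples were not analysed here.

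edgeR 4.0.16 in R 4.3.3 was fitted to the counts of all 6 libraries without a covariate, after filterByExpr (12786 genes) and TMM scaling, and a gene was called by the quasi-likelihood test when its p, adjusted by Benjamini-Hochberg over all genes tested, was below 0.05. Standard errors (SE) were derived from each log2 fold change and its F statistic, as the size of the former over the root of the latter. DESeq2 1.42.0 (test and size factors), limma 3.58.1 on log2(FPKM + 1) and log2(FPKM + 0.1), with a mean FPKM of at least 1 or none required, no filter on counts, a model of the 4 libraries compared, a term for the replicate number, and leaving out each library were the alternatives. A condition left with 1 library was assumed to vary like the others. Python 3.11.15, numpy 2.4.6, pandas 2.3.3 and matplotlib 3.10.9 served for summaries and plots.

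Depth ranged from 20687092 to 24095955 counts per library. Replicates differed by more than counting noise (chi-square per degree of freedom 42.9 with EV, 10.1 with BCR-ABL1 and 19.1 with C-MYC), and the common biological coefficient of variation was 0.151. On simulated counts with 12608 genes tested, edgeR recovered 79 of 100 genes changed by 1 on the log2 scale and 100 of 100 changed by 2 for C-MYC against EV, with 8 unchanged genes called, and 85 and 100 of 100 for BCR-ABL1 against C-MYC, with 7. Changes were simulated only in C-MYC, and 0 genes were called for BCR-ABL1 against EV. Every simulated gene was given the common coefficient of variation of 0.151. Changed genes were drawn only from those above a floor on mean CPM, which Flt3 and Ms4a1 did not reach. The simulation therefore does not give the recovery for scarcer genes or for genes that vary more between replicates.

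The replicate number was checked for pairing. Deviations of same-numbered libraries from their condition means correlated at 0.417 for EV and BCR-ABL1, 0.319 for EV and C-MYC, and 0.352 for BCR-ABL1 and C-MYC, over 10623 genes. Each comparison has only 2 such pairs, and the labels do not say what the number marks, so the pairing is a hint from the data.

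The members and gene lists were chosen with earlier results of these data known. From each list other than the 9 members, at most 4 genes are named: those with an adjusted p below 0.05 in a comparison, a mean of at least 50 counts and the largest changes. Genes that define a cell type and were at 0, Il2, and the checks Myc and Cd79a are named besides. The 2 nearest genes by correlation had a mean of at least 50 counts and an SD of log2(CPM + 0.5) of at least 0.5 times the member's. Ighd, Ighm and Ly6g of the lists were not used here, and some other list genes are not reported here. Gene positions and exon lengths are from GENCODE vM21, 1-based.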

Additional observations from a re-analysis of the deposited data

How the results depend on the processing

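The 27 log2 fold changes of the 9 members were recomputed in 378 alternatives: 316 kept direction and side of the threshold, 29 kept direction and lost the call, 28 gained it, and 5 reversed. None of the 20 called fold changes reversed under any of these alternatives. The 5 reversals were all of Cd24a in C-MYC against EV: 0.03 with DESeq2's test, 0.02 with its size factors, 0.03 in the model of the 4 libraries compared, 0.04 without EV replicate 1 and 0.19 without C-MYC replicate 2, and over fits without 1 library it ranged from -0.26 to 0.19. Another scaling moved the median log2 fold change of all genes by at most 0.044.

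Leaving out 1 library, members called ranged from 2 to 6 for BCR-ABL1 against EV, from 7 to 8 for C-MYC against EV and from 2 to 9 for BCR-ABL1 against C-MYC. Genes called ranged from 665 to 2729, from 3329 to 6077 and from 618 to 4519 for BCR-ABL1 against EV, C-MYC against EV, and BCR-ABL1 against C-MYC, where 2180, 5515 and 2991 were called with all libraries. For BCR-ABL1 against EV limma called 1055 genes at log2(FPKM + 1), 1043 at log2(FPKM + 0.1) and 1425 without a filter. For BCR-ABL1 against C-MYC it called 1412 without a filter, and the model of the 4 libraries called 4538. Fits to fewer libraries have fewer degrees of freedom, and in such fits the numbers of genes called both rose and fell. The cause of these shifts was not tested.

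With a replicate block, genes called rose to 3224, 6631 and 4278. Among members it brought Cd24a and Flt3 past the threshold for BCR-ABL1 against EV (adjusted p = 0.00705 and 0.00315), Flt3 for C-MYC against EV (0.0130), and Cd24a and Kit for BCR-ABL1 against C-MYC (0.00781 and 0.0232), and it changed no other call of a member. Flt3 and Ms4a1 had as few as 19 counts in a library, the fewest of the members.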
